A study of Mus musculus with 16 samples.

Results

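Fibroblast growth factor (FGF) signalling through the kinase ERK switches on genes that restrain the same pathway, together with a family of ETS transcription factors. A set of 10 such genes are described here in mouse stem cells and in structures assembled from them: the ERK phosphatases Dusp4 and Dusp6, the Sprouty inhibitors Spry1, Spry2 and Spry4, the Sprouty-related inhibitors Spred1 and Spred2, and the ETS factors Etv1, Etv4 and Etv5. They were chosen by symbol from the deposited table, and all 10 of the 31663 entries sought were found. All 10 were also among the 13406 genes that passed the filter of at least 1 FPKM in at least 2 libraries. FPKM count fragments relative to transcript length and to all those mapped, so levels of different genes can be set side by side.

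An FGF bound to its receptor recruits adaptors that activate RAS, RAF, MEK and finally ERK. Dusp6 removes the activating phosphates from ERK in the cytoplasm and Dusp4 does so in the nucleus, while Sprouty and Spred proteins act between the receptor and RAF. Etv4 and Etv5 are widely read as transcriptional outputs of FGF signalling, and Capicua (CIC) is a repressor that keeps Etv genes and several feedback genes off until ERK signalling relieves it. In the mouse embryo, FGF4 from the epiblast sustains the neighbouring trophoblast stem cells, and in pluripotent cells the ERK pathway promotes exit from the ground state.

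RNA was measured in 16 libraries made with the Smart-seq2 protocol, 2 for each of 8 groups. The cells were RFP-marked trophectoderm stem cells (TSC) and GFP-marked induced pluripotent stem cells (iPSC). In the assembled groups both cell types were mixed, and a structure with a red and a green side formed. Each side was separated under a stereomicroscope and made into a library of its own, here called the TSC part and the iPSC part. The other groups were colonies of TSC alone or iPSC alone. The 8 groups were thus the TSC part with BMP4, the TSC part, TSC alone with BMP4, TSC alone, the iPSC part with BMP4, the iPSC part, iPSC alone with BMP4 and iPSC alone. All of them, controls included, grew on 5% Matrigel in a medium with serum, N2 and B27 that held 12.5 ng/ml of FGF4 and 500 ng/ml of heparin. BMP4 was present or absent over the final 24 hours of culture, which ended on day 3, and the sources used here do not state its dose. A library came from a single colony or part, and the labels do not say whether replicates were separate cultures. The p-values therefore reflect the spread among these libraries alone.

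Promoter sequences, from the RefSeq table for build GRCm38.p6, were matched for 7 of the 10 genes (9 promoters). Each window ran from 250 bases before the annotated start to 30 bases from it, 280 bases in all, and was searched on both strands. The CIC octamers TGAATGAA, TGAATGGA, TCAATGAA and TCAATGGA were found in the windows of Dusp6 and Spry2 and in 3.65% of all 32851 promoters. The ETS sequence CCGGAAG was in 0 of the 9 member promoters and in 8.45% of all promoters. Only this exact string was searched. Shorter matches such as GGAA, which both windows printed below hold, were not counted. The windows of Dusp6 (chr10:99262981-99263260, plus strand) and Spry2 (chr14:105896790-105897069, minus strand) are shown because they hold these octamers, which are in capitals as read on the printed strand, 5′ to 3′.
Dusp6: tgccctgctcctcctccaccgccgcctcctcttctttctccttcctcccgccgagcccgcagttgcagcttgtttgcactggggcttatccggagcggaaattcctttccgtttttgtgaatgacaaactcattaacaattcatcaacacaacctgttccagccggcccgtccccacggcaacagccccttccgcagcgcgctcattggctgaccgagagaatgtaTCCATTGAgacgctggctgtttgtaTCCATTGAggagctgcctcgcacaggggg
Spry2: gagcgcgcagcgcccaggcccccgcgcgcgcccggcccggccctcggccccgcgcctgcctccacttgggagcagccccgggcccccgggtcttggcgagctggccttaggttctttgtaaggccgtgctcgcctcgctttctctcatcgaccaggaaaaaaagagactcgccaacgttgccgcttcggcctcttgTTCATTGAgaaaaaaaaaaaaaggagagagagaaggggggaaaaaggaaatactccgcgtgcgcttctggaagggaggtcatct
With the first transcribed base counted as 0, the Dusp6 copies began at -24 and 1 and the Spry2 copy at -54. A match of letters is a description of the sequence and not a measured binding site. Dusp4, Spry4 and Etv4 had no entry used here.

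Each library had between 10504 and 11419 genes at 1 FPKM or more, and the read depth is unknown. Genes that differed more than 2-fold between replicates numbered 2083 in TSC alone, the most of any group, and 454 in iPSC alone, the fewest. The 6 pluripotency markers summed to 166 to 1086 FPKM in the 8 libraries of TSC origin and 922 to 3842 in the 8 of iPSC origin. The 8 trophoblast markers summed to 6221 and 3509 FPKM in TSC alone, 516 to 1681 in the other 6 libraries of TSC origin and 124 to 781 in those of iPSC origin. In TSC alone the keratin genes Krt8 and Krt18, with Gata3 and Tfap2c, had their highest means of the 8 groups. Of the stem cell markers in that list, Eomes was at 0.219 and 0.0844 FPKM there, and Cdx2 was listed at 0 in replicate 1 and at 3.89 in replicate 2. In the same 2 libraries 6 markers of differentiated trophoblast summed to 7563 and 5059 FPKM, against 162 to 1803 in the other 6 libraries of TSC origin. Of these markers Tpbpa and Prl3d1 were at 0 in all 16 libraries. Gcm1 was also at 0 in replicate 1 of TSC alone, where the sum thus came from Plac1, Ascl2 and Phlda2. Primitive endoderm and fibroblast markers summed to at most 3.42 and 3.32 FPKM in any library. A pair of libraries, called the doubted pair below, went partly against its labels. Replicate 2 of the TSC part had Tdgf1 at 22.5 and Dppa5a at 499 FPKM (0.261 and 8.73 in replicate 1). In the iPSC part with BMP4, replicate 2 had Elf5 at 50.4 FPKM (0.193 in replicate 1). Its sums of the trophoblast and pluripotency lists did not set it apart in the same way. Trophoblast markers summed to 542 FPKM in replicate 1 and 577 in replicate 2 there, and pluripotency markers to 2270 and 3727. Markers of differentiated trophoblast did set it apart, with 210 FPKM in replicate 2 and 50.5 in replicate 1. They summed to 40.4 to 84.3 FPKM over all libraries of iPSC origin other than that replicate 2. Replicate 2 of the TSC part with BMP4 was not put in the pair. Its pluripotency markers summed to 638 FPKM, against 169 in replicate 1. Counts of genes that passed the test are given below with and without this pair where they differ.

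In TSC cultured alone without BMP4, the whole set of feedback inhibitors and ETS factors was at its lowest. Of the 10 genes, 9 were below 1 FPKM in both libraries of TSC alone and at least 1 FPKM in both of iPSC alone, a pattern held by 7.42% of the genes tested. The exception was Spred2, with 1.41 FPKM in replicate 1. In the other 3 groups of TSC origin, 1 to 3 of the 10 genes were below 1 FPKM in a library, and in the iPSC groups none was. For every one of the 10 genes both libraries of TSC alone lay below the other 14 libraries. Fewer cells of a type and less RNA of a gene per cell cannot be told apart in such bulk libraries.

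**Figure D1:**
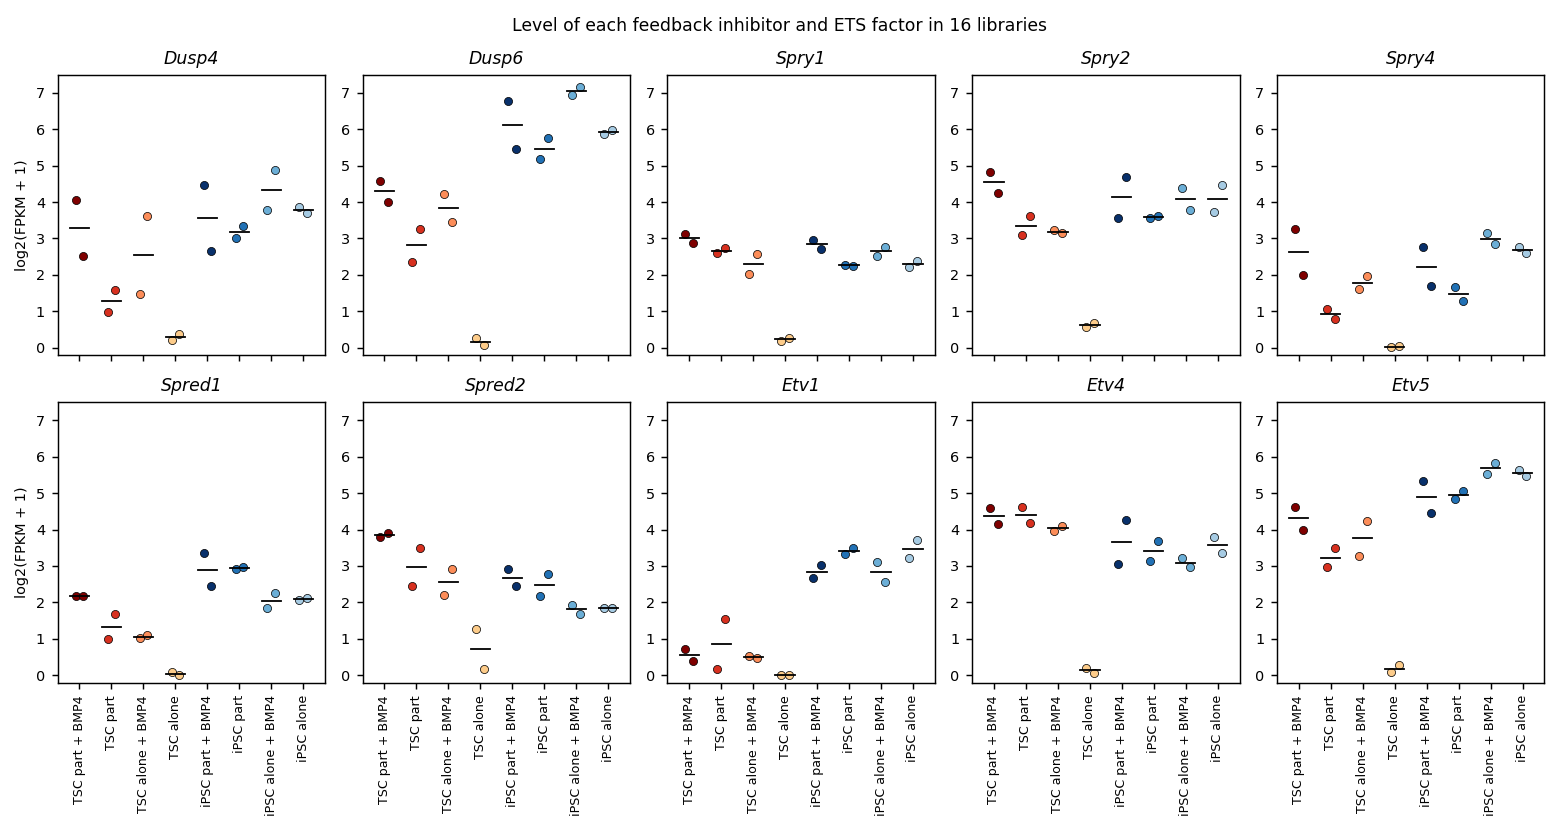
Level of each gene in every library on the log2(FPKM + 1) scale, one panel per gene, with the 8 groups along the horizontal axis, a point for each library and a bar at the group mean. TSC alone is the lowest group in all 10 panels, and Etv1 stays below 2 FPKM in all libraries of TSC origin.

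Among the phosphatases, Dusp6 spanned the widest range of FPKM of the 10 genes. It stood at 23.1 and 15.0 FPKM in the TSC part with BMP4, 4.16 and 8.51 in the TSC part, 17.5 and 10.0 in TSC alone with BMP4, and 0.206 and 0.0433 in TSC alone. In cells of iPSC origin it stood at 109 and 42.7 in the iPSC part with BMP4, 35.0 and 53.2 in the iPSC part, 121 and 141 in iPSC alone with BMP4, and 57.3 and 62.5 in iPSC alone. Every library of iPSC origin was above every library of TSC origin, and iPSC alone with BMP4 was above all others. Dusp4 was more variable: its replicates were 15.5 and 4.74 FPKM in the TSC part with BMP4, 0.973 and 2.01 in the TSC part, 1.80 and 11.2 in TSC alone with BMP4, and 0.150 and 0.310 in TSC alone. In the iPSC groups Dusp4 lay between 5.27 and 28.7 FPKM, and its replicates lay far apart with BMP4, at 21.1 and 5.27 in the iPSC part and 12.8 and 28.7 in iPSC alone. Apart from TSC alone, most neighbouring groups in the order of Dusp4 levels overlapped.

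Spry2 was the most abundant Sprouty in all 16 libraries. It had 27.6 and 17.9 FPKM in the TSC part with BMP4, 7.60 and 11.2 in the TSC part, 8.39 and 7.86 in TSC alone with BMP4, and 0.477 and 0.599 in TSC alone, against 10.8 to 24.7 in the 8 libraries of iPSC origin. Outside TSC alone, Spry2 did not separate the lineages. Spry1 lay between 3.08 and 7.73 FPKM in the 14 libraries other than TSC alone, where it was at 0.145 and 0.200. An exon of Spry1 overlaps Gm42922 on the opposite strand in the GENCODE M21 annotation, and reads of the pair cannot be told apart without strand. Spry4 had 8.63 and 3.02 FPKM in the TSC part with BMP4, 1.09 and 0.714 in the TSC part, 2.05 and 2.90 in TSC alone with BMP4, and 0.0174 and 0.0255 in TSC alone. In the iPSC part Spry4 was at 2.16 and 1.44 FPKM, below both libraries of iPSC alone, at 5.78 and 5.07. It exceeded Spry1 in both libraries of iPSC alone and was below it in both of the TSC part.

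The shares of the 2 Spred genes split by lineage, whereas the levels of either gene overlapped between the lineages. Spred1 was highest in the iPSC parts, with 9.20 and 4.46 FPKM with BMP4 and 6.51 and 6.87 without, and stood at 3.22 and 3.33 in iPSC alone. In cells of TSC origin it had 3.49 and 3.56 FPKM in the TSC part with BMP4, 0.978 and 2.21 in the TSC part, 1.01 and 1.15 in TSC alone with BMP4, and 0.0655 and 0 in TSC alone. Spred2 was highest in the TSC part with BMP4, where its 12.8 and 14.1 FPKM exceeded every other library. It had 4.42 and 10.3 in the TSC part, 3.63 and 6.58 in TSC alone with BMP4, 1.41 and 0.132 in TSC alone, and 2.23 to 6.56 in the 8 libraries of iPSC origin. Of the summed Spred1 and Spred2 FPKM, Spred2 made up 78.2% to 85.1% in the libraries of TSC origin other than TSC alone. It made up 35.0% to 52.2% in the 8 of iPSC origin, with no overlap. In TSC alone its shares were 95.6% and 100%, but of sums of only 1.48 and 0.132 FPKM.

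The ETS factors differed from one another most clearly. Etv1 was listed at 0 in both libraries of TSC alone and was at 0.136 to 1.91 FPKM in the other 6 libraries of TSC origin, against 4.89 to 12.2 in the 8 of iPSC origin. Etv5 had 23.7 and 15.0 FPKM in the TSC part with BMP4, 6.90 and 10.2 in the TSC part, 8.64 and 18.0 in TSC alone with BMP4, and 0.0640 and 0.208 in TSC alone. It ranged from 20.8 to 56.0 in the iPSC groups, and overlapped the TSC groups only through a single library of each, replicate 2 of the BMP4-treated iPSC part and replicate 1 of the BMP4-treated TSC part. Etv4 had the opposite lean: 22.9 and 16.8 FPKM in the TSC part with BMP4, 23.7 and 17.1 in the TSC part, and 14.6 and 16.1 in TSC alone with BMP4, but 0.143 and 0.0528 in TSC alone. In the iPSC groups Etv4 lay between 6.82 and 18.4, with the highest value in the BMP4-treated iPSC part (replicate 2), a library of the doubted pair.

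**Figure D2:**
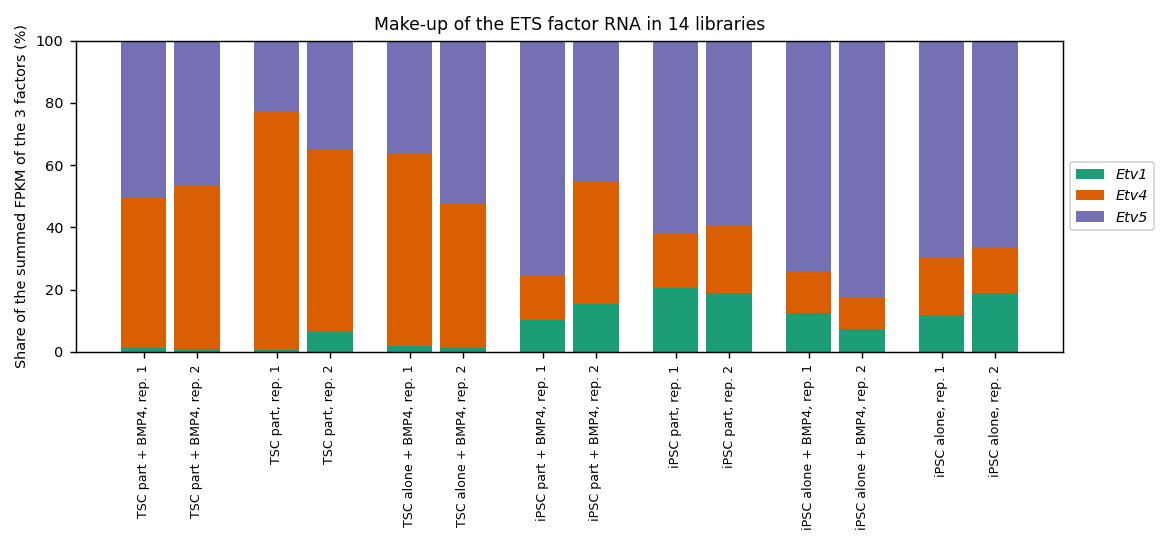
Share of the summed FPKM of Etv1, Etv4 and Etv5 held by each gene, as stacked bars in percent for every library except those of TSC alone. TSC alone, whose summed level is near 0, is not drawn. Etv4 holds 46.7% to 77.1% in the libraries of TSC origin shown and 10.1% to 39.7% in those of iPSC origin.

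As shares of the 3 factors' summed FPKM, Etv4 made up 46.7% to 77.1% in the 6 libraries of TSC origin other than TSC alone, against 10.1% to 39.7% in the 8 of iPSC origin. Etv1 made up 0.441% to 6.55% in those 6 libraries and 7.22% to 20.5% in the iPSC libraries. Etv5 held the largest share in every library of iPSC origin, 45.0% to 82.7%. The upper end of the Etv4 share in iPSC cells, 39.7%, came from replicate 2 of the iPSC part with BMP4.

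Set against iPSC alone, TSC alone had lower levels of 9 of the 10 genes by limma on log2(FPKM + 1) (adjusted p under 0.05 over all genes tested), where 20.2% of all genes were lower. The median log2 difference was -3.46 for the 10 genes and -0.11 for all genes. Dusp6 averaged 0.125 ± 0.115 FPKM in TSC alone and 59.9 ± 3.63 in iPSC alone (SD, n = 2 each), a log2 difference of -5.76 ± 0.43 (SE, limma adjusted p = 6.8e-06). Etv5 was at 0.136 ± 0.102 in TSC alone and 45.9 ± 4.06 in iPSC alone (-5.37 ± 0.37, limma adjusted p = 4.67e-06). The difference was -3.48 ± 0.72 for Dusp4, -3.48 ± 0.38 for Spry2, -3.47 ± 0.39 for Etv1 and -3.45 ± 0.37 for Etv4, and it was -2.65 ± 0.42 for Spry4, -2.08 ± 0.27 for Spry1 and -2.05 ± 0.33 for Spred1. The adjusted p of these 7 genes in limma lay between 3.57e-05 and 0.00244. Spred2, at 0.772 ± 0.906 FPKM in TSC alone and 2.58 ± 0.0166 in iPSC alone, missed the threshold (-1.11 ± 0.43, limma adjusted p = 0.0613). It passed without replicate 1 of TSC alone (-1.66, limma adjusted p = 0.0193) and without the doubted pair (-1.11, limma adjusted p = 0.0475), which made 10 genes. All 10 genes were lower in TSC alone with no overlap, which 38.2% of genes were. Because 1 FPKM is added before the logarithm, these differences understate the folds of genes near 0. Some of the 6 markers listed for differentiated trophoblast moved with this contrast. Of the 4 tested, 3 passed in limma as higher in TSC alone and 0 as lower. The list summed to 7563 and 5059 FPKM in TSC alone and 77.3 and 40.4 in iPSC alone, with Tpbpa and Prl3d1 at 0. The part of these markers in the result was not tested.

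With BMP4 in both cultures, 3 of the 10 genes passed. TSC with BMP4 were lower than iPSC with BMP4 in Dusp6 (-3.20 ± 0.43, limma adjusted p = 0.000454), Etv1 (-2.33 ± 0.39, limma adjusted p = 0.00193) and Etv5 (-1.93 ± 0.37, limma adjusted p = 0.00413). All 3 were lower, as were 10.6% of all genes. The other 7 genes missed the threshold. Etv4 averaged 15.4 ± 1.05 FPKM in TSC with BMP4 and 7.53 ± 1.01 in iPSC with BMP4 (0.94 ± 0.37, limma adjusted p = 0.097), and its groups did not overlap. A fit without the doubted pair, which is not in these groups but feeds the shared estimate of spread, called 5 genes, adding Spred1 as lower (-0.99, limma adjusted p = 0.0212) and Etv4 as higher (0.94, limma adjusted p = 0.0428).

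Between the parts of the assembled structures, 4 of the 10 genes were lower in the TSC part than in the iPSC part, where 5.89% of all genes were lower. They were Dusp6 (6.33 ± 3.08 FPKM in the TSC part and 44.1 ± 12.9 in the iPSC part; -2.66 ± 0.43, limma adjusted p = 0.00181), Etv1 (-2.56 ± 0.39, limma adjusted p = 0.00138), Spred1 (-1.61 ± 0.33, limma adjusted p = 0.00603) and Etv5 (-1.72 ± 0.37, limma adjusted p = 0.0078). The calls of Spred1 and Etv5 were lost without replicate 1 of the TSC part (limma adjusted p = 0.0724 and 0.0793), and that of Etv5 also without replicate 2 of the iPSC part (limma adjusted p = 0.0641). Etv4 was at 20.4 ± 4.67 FPKM in the TSC part and 9.84 ± 2.89 in the iPSC part, without overlap, but missed the threshold (0.99 ± 0.37, limma adjusted p = 0.0855). Without the doubted pair it passed (1.22, limma adjusted p = 0.0451), which made 5 genes. With BMP4, 2 genes were lower in the TSC part than in the iPSC part, where 4.82% of all genes were lower: Etv1 (-2.29 ± 0.39, limma adjusted p = 0.00362) and Dusp6 (-1.82 ± 0.43, limma adjusted p = 0.0189). The Dusp6 call was lost without replicate 1 of the iPSC part with BMP4 (limma adjusted p = 0.18) and without either replicate of the TSC part with BMP4 (0.0502 and 0.13). Without the doubted pair 4 genes passed, with Spred1 also lower (-1.17, limma adjusted p = 0.0336) and Etv4 higher (1.31, limma adjusted p = 0.0362). Dusp6 and Etv1 were thus the 2 genes that passed as lower in TSC in all 4 settings.

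**Figure D3:**
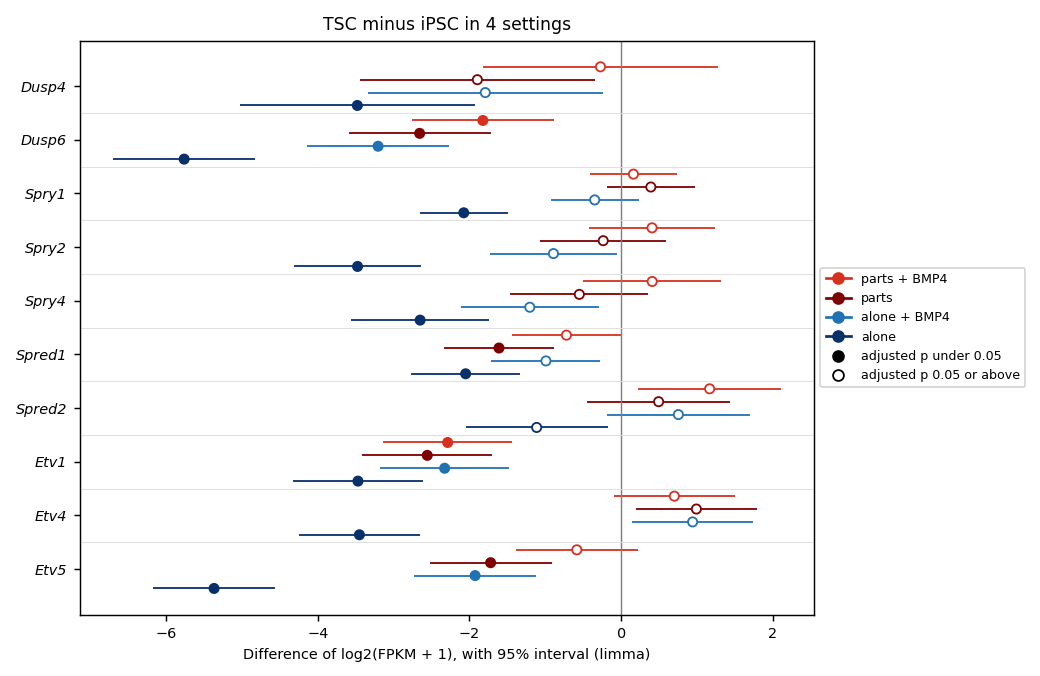
TSC minus iPSC difference of log2(FPKM + 1) for each gene with its 95% interval, in assembled parts with BMP4, assembled parts, cells alone with BMP4 and cells alone; filled points have a limma adjusted p under 0.05. The points for cells alone lie farthest to the left for every gene, and those of Dusp6 and Etv1 are filled in all 4 settings.

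Assembly with iPSC was accompanied by higher levels of most of these genes in the TSC side. In the TSC part against TSC alone, 7 of 10 genes rose, where 9.01% of all genes were higher, and all 10 were higher without overlap, where 28.6% of all genes were. The median log2 difference was 2.34 for the 10 genes and 0.03 for all genes. Etv4 had the largest change, to 20.4 ± 4.67 FPKM in the TSC part, against 0.0979 ± 0.0639 in TSC alone (4.27 ± 0.37, limma adjusted p = 6.44e-05). Spry1 rose to 5.33 ± 0.387 in the TSC part, against 0.173 ± 0.0391 in TSC alone (2.43 ± 0.27, limma adjusted p = 0.000234). The remaining called genes were Etv5 (3.05 ± 0.37), Spry2 (2.73 ± 0.38), Dusp6 (2.64 ± 0.43), Spred2 (2.25 ± 0.43) and Spred1 (1.29 ± 0.33), with a limma adjusted p between 0.000348 and 0.0185. Dusp4 (0.99 ± 0.72), Spry4 (0.89 ± 0.42) and Etv1 (0.86 ± 0.39) were not called.

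The Spred1 call was lost without replicate 2 of the TSC part (limma adjusted p = 0.136) and without replicate 2 of TSC alone (limma adjusted p = 0.0651), and Etv1 was called without replicate 1 of the TSC part (1.54, limma adjusted p = 0.0268). Replicate 2 of the TSC part is one of the libraries with raised pluripotency markers. Without the doubted pair 6 genes were called, Etv4 and Etv5 among them, and the Spred1 call was lost (limma adjusted p = 0.0758). A fit of only these 2 groups called 0 of the 10 genes and 3 of all 13406 (lowest limma adjusted p of the 7 genes 0.0725). Summed pluripotency markers were 737 and 1086 FPKM in the TSC part and 176 and 261 in TSC alone. Summed markers of differentiated trophoblast were 1274 and 666 FPKM in the TSC part and 7563 and 5059 in TSC alone. The part of either marker list in the result was not tested.

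With BMP4 in both groups, no gene was called between the TSC part and TSC alone. All 10 estimates were positive, with a median of 0.72, but 0 of 10 genes passed in limma, and 4 had an unadjusted p under 0.05. Over all genes only 0.298% passed. The largest estimates were those of Spry2 (1.35 ± 0.38, limma adjusted p = 0.151), Spred2 (1.28 ± 0.43, limma adjusted p = 0.197) and Spred1 (1.12 ± 0.33, limma adjusted p = 0.156). The groups did not overlap for 6 genes, where 17.3% of all genes were higher without overlap.

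No gene of the set was called with assembly in iPSC. In the iPSC part against iPSC alone 0 of 10 genes passed in limma, 2 had an unadjusted p under 0.05, and 11.8% of all genes passed (2.08% higher and 9.74% lower). That background rested on single libraries. The 1585 genes called became 6 without replicate 2 of the iPSC part, 739 without its replicate 1, and 158 and 110 without replicates 1 and 2 of iPSC alone, and 3985 with library quality weights. The median log2 difference was -0.32 for the 10 genes and -0.19 for all genes; that of all genes became 0.00073 with quantile normalization and -0.38 with predicted gene names left out. Spry4 was lower in both libraries (1.80 ± 0.506 FPKM in the iPSC part and 5.42 ± 0.505 in iPSC alone; -1.21 ± 0.42, limma adjusted p = 0.079). Spred1 was higher in both (6.69 ± 0.256 in the iPSC part and 3.28 ± 0.0799 in iPSC alone; 0.85 ± 0.33, limma adjusted p = 0.115). The other 8 estimates ran from -0.60 for Etv5 (95% interval -1.40 to 0.21) to 0.64 for Spred2 (-0.30 to 1.58), and for Dusp6 the interval was -1.40 to 0.47. With BMP4 in both groups, 0 of 10 genes passed, 1 had an unadjusted p under 0.05, and 5.72% of all genes passed. There Spred1 was again higher in the iPSC part (0.85 ± 0.33, limma adjusted p = 0.134), and Dusp6 had an estimate of -0.92 (95% interval -1.86 to 0.01). Spred1 passed without replicate 2 of the BMP4-treated iPSC part (1.30, limma adjusted p = 0.0493) and without the doubted pair (1.30, limma adjusted p = 0.0426).

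**Figure D4:**
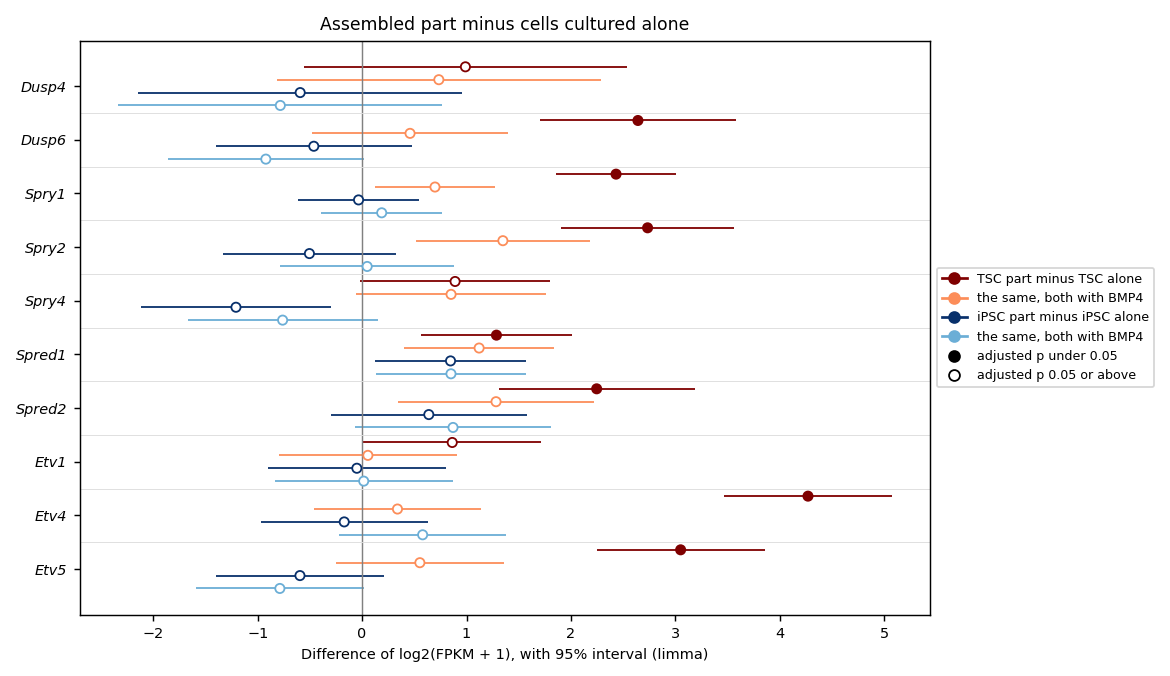
Assembled part minus cells alone, as a difference of log2(FPKM + 1) with its 95% interval, for TSC and iPSC without and with BMP4; filled points have a limma adjusted p under 0.05. Filled points occur only for the TSC part against TSC alone, both without BMP4, where Etv4 lies at 4.27.

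The difference between the lineages in their change with assembly was tested directly. Without BMP4, 5 of 10 genes had a higher change in TSC than in iPSC, as had 3.28% of all genes. The difference of the log2 differences was 4.44 ± 0.52 for Etv4 (limma adjusted p = 0.00223), 3.65 ± 0.53 for Etv5 (limma adjusted p = 0.00446), 3.24 ± 0.54 for Spry2 (limma adjusted p = 0.00915), 3.10 ± 0.61 for Dusp6 (limma adjusted p = 0.0168) and 2.47 ± 0.38 for Spry1 (limma adjusted p = 0.00568). The Dusp6 call was lost without replicate 1 or 2 of iPSC alone (limma adjusted p = 0.0599 and 0.0729), replicate 1 of the iPSC part (0.0673) or replicate 2 of the TSC part (0.0554), and the Spry2 call without replicate 2 of iPSC alone (0.0525). With BMP4, 0 of 10 genes passed in limma, 4 had an unadjusted p under 0.05, and 0.0298% of all genes passed.

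BMP4 was accompanied by a rise of most of these genes in TSC alone. In TSC with BMP4 against TSC alone, 7 of 10 genes rose, where 6.39% of all genes were higher, and all 10 were higher without overlap, where 25.6% of all genes were. The median log2 difference was 2.16. Etv4 rose to 15.4 ± 1.05 FPKM with BMP4, against 0.0979 ± 0.0639 without (3.90 ± 0.37, limma adjusted p = 7.95e-05). Dusp6 rose to 13.8 ± 5.31 with BMP4, against 0.125 ± 0.115 without (3.67 ± 0.43, limma adjusted p = 0.000401). Etv5 (3.58 ± 0.37), Spry2 (2.57 ± 0.38), Spry1 (2.07 ± 0.27), Spred2 (1.84 ± 0.43) and Spry4 (1.75 ± 0.42) also passed, with a limma adjusted p between 0.000141 and 0.0185.

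Dusp4, whose replicates with BMP4 were 1.80 and 11.2 FPKM, was not called (2.25 ± 0.72, limma adjusted p = 0.0591), nor were Spred1 (1.01 ± 0.33, limma adjusted p = 0.0669) and Etv1 (0.51 ± 0.39, limma adjusted p = 0.447). Without the doubted pair Spred1 passed (limma adjusted p = 0.0273), which made 8 genes. Dusp4 passed without replicate 1 of TSC with BMP4 (3.32, limma adjusted p = 0.034). The Spry4 call was lost without any one of the 4 libraries, with a limma adjusted p between 0.0581 and 0.073. The Spred2 call was lost without replicate 2 of TSC alone or replicate 2 of TSC with BMP4 (limma adjusted p = 0.104 and 0.0845). This comparison, the one of the TSC part with TSC alone, and the one of TSC with iPSC alone share the same 2 libraries of TSC alone, so a deviation of these libraries would enter all of them. Summed markers of differentiated trophoblast were 1803 and 1200 FPKM in TSC with BMP4 and 7563 and 5059 in TSC alone, and their part in the rise was not tested. A fit of only these 2 groups called 0 of the 10 genes and 3 of all 13406 (lowest limma adjusted p of the 7 genes 0.135).

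In the TSC part, no gene of the set passed with BMP4. Against the TSC part without BMP4, 0 of 10 genes passed in limma, 6 had an unadjusted p under 0.05, and 0.5% of all genes passed. Both phosphatases, Spry2, Spry4 and Etv5 had estimates above 1. The highest were 2.00 ± 0.72 for Dusp4, 1.72 ± 0.42 for Spry4, 1.49 ± 0.43 for Dusp6 and 1.18 ± 0.38 for Spry2. Etv5 was at 19.3 ± 6.2 FPKM in the TSC part with BMP4 and 8.54 ± 2.31 in the TSC part. The lowest adjusted p, for Spry4, was 0.124 in limma. The groups did not overlap for 8 genes, where 17.6% of all genes were higher without overlap. Etv4 was at 19.9 ± 4.32 FPKM in the TSC part with BMP4 and 20.4 ± 4.67 in the TSC part (-0.04, 95% interval -0.84 to 0.77).

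The effect of BMP4 differed between the TSC part and TSC alone for 3 of 10 genes, all with a smaller change in the TSC part, where 1.01% of all genes did so. The difference of the log2 differences was -3.93 ± 0.52 for Etv4 (limma adjusted p = 0.00487), -2.50 ± 0.53 for Etv5 (limma adjusted p = 0.0382) and -1.73 ± 0.38 for Spry1 (limma adjusted p = 0.0453). These genes were below 1 FPKM in TSC alone. The Etv4 call held in all 17 alternatives run, with a highest limma adjusted p of 0.0493, whereas the calls of Etv5 and Spry1 were lost in most of them, including without the doubted pair (limma adjusted p = 0.0686 and 0.0893). This test, too, uses the libraries of TSC alone. In iPSC the corresponding test gave 0 of 10 genes in limma, 0 with an unadjusted p under 0.05, and 0.0224% of all genes.

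In iPSC alone, no gene of the set passed with BMP4. Against iPSC alone without BMP4, 0 of 10 genes passed in limma, where 0.0597% of all genes did, and Dusp6 was the 1 gene with an unadjusted p under 0.05. Dusp6 was at 131 ± 14.4 FPKM with BMP4 and 59.9 ± 3.63 without, higher in both libraries (1.11 ± 0.43, limma adjusted p = 0.657). The 95% interval was -0.85 to 0.82 for Spry2, -1.30 to 0.31 for Etv4 and -0.67 to 0.94 for Etv5. In the iPSC part with BMP4 against the iPSC part, 0 of 10 genes passed in limma, 0 had an unadjusted p under 0.05, and 0.00746% of all genes passed. The Dusp6 estimate there was 0.65 (95% interval -0.28 to 1.59), with replicates at 109 and 42.7 FPKM with BMP4 and 35.0 and 53.2 without.

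**Figure D5:**
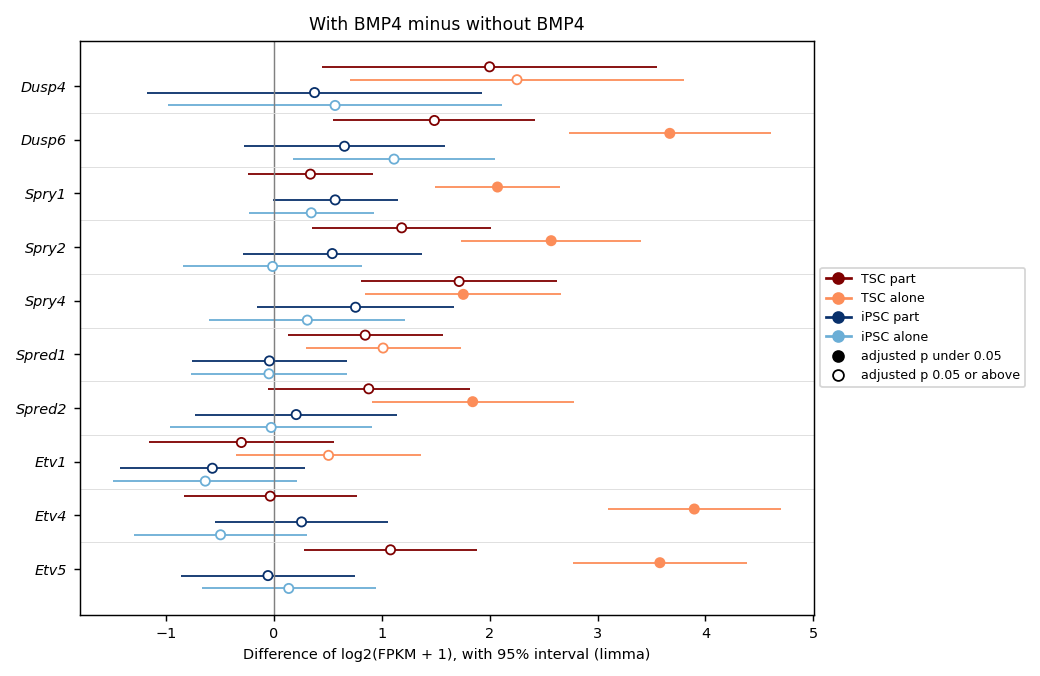
With BMP4 minus without, as a difference of log2(FPKM + 1) with its 95% interval, for the TSC part, TSC alone, the iPSC part and iPSC alone; filled points have a limma adjusted p under 0.05. Filled points occur only for TSC alone, and Etv4 lies at 3.90 there and at -0.04 in the TSC part.

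Other inhibitors of the pathway differed in both directions. Of 9 further phosphatases and feedback inhibitors tested, 6 were higher and 3 lower in TSC alone than in iPSC alone, where 16.2% of all genes were higher and 20.2% lower. Dusp9, an ERK phosphatase that the mouse placenta requires, was at 277 ± 24.8 FPKM in TSC alone and 12.3 ± 2.09 in iPSC alone (4.39 ± 0.47, limma adjusted p = 3.56e-05). Dusp2 (-2.98 ± 0.51) and Il17rd, the Sef inhibitor (-2.08 ± 0.37), were lower in TSC alone. In the TSC part against TSC alone, 3 of the 9 fell and 0 rose, where 10.2% of all genes were lower and 9.01% higher: Dusp9 (-2.18 ± 0.47), Lrig1, a negative regulator of receptor tyrosine kinases (-1.52 ± 0.37), and the stress-induced phosphatase Dusp1 (-0.93 ± 0.25). In TSC with BMP4 against TSC alone, 3 fell and 0 rose, where 5.74% of all genes were lower and 6.39% higher, again Dusp9 (-2.00 ± 0.47), Lrig1 (-1.50 ± 0.37) and Dusp1 (-1.07 ± 0.25). Between the parts, 3 of the 9 were higher and 2 lower in the TSC part, where 2271 of all 13406 genes passed in either direction. Among those higher, Errfi1, an inhibitor of the EGF receptor, was at 47.7 ± 11.4 FPKM in the TSC part and 3.71 ± 1.33 in the iPSC part (3.38 ± 0.41, limma adjusted p = 0.000547).

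Among 7 other transcriptional targets of ERK, 3 rose and 1 fell in both the TSC part and TSC with BMP4 against TSC alone. Over all genes, 9.01% were higher and 10.2% lower in the TSC part, and 6.39% higher and 5.74% lower in TSC with BMP4. A fit of only the groups compared called 3 of all 13406 genes in either comparison, and no fit with a library left out is given for these targets. The cyclin gene Ccnd1 stood at 15.6 ± 12.4 FPKM in the TSC part and 0.519 ± 0.23 in TSC alone (3.23 ± 0.53, limma adjusted p = 0.00186). Its SD in the TSC part was close to the mean, and replicate 2 of that group is in the doubted pair. In TSC with BMP4 Ccnd1 was at 13.6 ± 3.64 (3.25 ± 0.53, limma adjusted p = 0.00257). Fosl1, an AP-1 subunit, and Phlda1 also rose in both, by 2.37 ± 0.45 and 2.22 ± 0.45 in the TSC part and by 2.98 ± 0.45 and 1.97 ± 0.45 with BMP4, whereas Myc fell (-1.50 ± 0.32 in the TSC part, -1.05 ± 0.32 with BMP4). Of the 7 targets, 1 was higher and 3 were lower in TSC alone than in iPSC alone, where 16.2% of all genes were higher and 20.2% lower. Among those lower, the immediate early gene Egr1 was at 0.147 ± 0.0962 FPKM in TSC alone and 46.0 ± 12.8 in iPSC alone (-5.33 ± 0.49, limma adjusted p = 1.49e-05).

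Of 21 genes of the cascade between the receptor and ERK, 7 were higher and 2 lower in TSC alone than in iPSC alone, where 16.2% of all genes were higher and 20.2% lower. The repressor Cic was at 18.7 ± 3.12 FPKM in TSC alone and 4.71 ± 0.565 in iPSC alone (1.78 ± 0.48, limma adjusted p = 0.0119), and the adaptors Frs2 (1.69 ± 0.35) and Gab1 (1.61 ± 0.47) were also higher. In the TSC part against TSC alone, 1 rose and 3 fell, where 9.01% of all genes were higher and 10.2% lower, with Map2k2, which encodes MEK2, at -1.35 ± 0.24 and Nf1, a brake on RAS, at 1.34 ± 0.39. With BMP4 in TSC alone, 0 rose and 1 fell (Rasa1, -1.57 ± 0.38), where 6.39% of all genes were higher and 5.74% lower. Of 7 FGF receptors and ligands, 0 were higher and 3 lower in TSC alone than in iPSC alone, against the same 16.2% and 20.2% of all genes: Fgf5 (-5.46 ± 0.47), Fgf8 (-4.08 ± 0.87) and Fgf4 (-1.78 ± 0.35). In the TSC part against TSC alone 0 of the 7 passed in limma, and 1 had an unadjusted p under 0.05. Between the parts, 1 of the 7 was higher and 2 were lower in the TSC part, where 2271 of all 13406 genes passed in either direction. The higher one was Fgfr2, through which FGF4 acts on trophoblast stem cells. It was at 28.0 ± 15.3 FPKM in the TSC part and 0.628 ± 0.182 in the iPSC part (4.05 ± 0.89, limma adjusted p = 0.00859).

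Across the 16 libraries the 10 genes followed one another to different degrees. Pearson's r between a gene and the mean of the other 9, on standardised log2(FPKM + 1), was 0.958 for Etv5, 0.924 for Spry2, 0.894 for Dusp6 and 0.890 for Spry1, and lowest for Etv4 (0.704), Etv1 (0.595) and Spred2 (0.520). Over the 45 pairs the median r was 0.73, and 44 were positive. Without the 2 libraries of TSC alone the median was 0.30, with a range from -0.81 to 0.92 and 32 positive pairs, and the shared pattern thus rested in large part on those 2 libraries. The libraries share their groups, and these values are descriptions. Among the 9242 other genes searched, the closest to the mean pattern were Cxxc5 (r = 0.937), Socs2 (0.926), Khk (0.923), Rap1gds1 (0.920) and Cpxm1 (0.918). Cxxc5 was at 0.895 FPKM on average in TSC alone and between 8.67 and 14.3 in the other 7 groups.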

How the data were processed

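RNA was measured by Smart-seq2 in 16 libraries, grouped by the sample labels, and the authors deposited 1 table of FPKM. CASAVA, TopHat2 and the genome builds mm9 and hg19 are named, without roles or versions, per the submitters' processing notes. The sources used here do not give the program that computed FPKM, its annotation or its use of strand. Depth is unknown, so no counting interval is given. No column was left unmapped, and 12 entries repeat a symbol, none of them among the 10 genes.

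Tests used log2(FPKM + 1) of the genes that reached 1 FPKM in 2 libraries or more. They ran in limma (version 3.58.1, under R 4.3.3; moderated with a trend) over 8 group means leaving 8 residual degrees of freedom. The 16 comparisons were 12 between groups and 4 differences of differences. Tests were two-sided, with Benjamini-Hochberg adjustment over all 13406 genes of a comparison and a threshold of 0.05.

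The 10 genes, the 4 lists of other pathway genes, the markers and the doubted pair of libraries were chosen with earlier results of these data known. From each pathway list at most 3 genes past the threshold with the largest change were named. Genes with a like pattern were the 5 with the highest Pearson's r among those with at least 5 FPKM in a group mean. Alternatives were quantile normalization, rescaling to the upper quartile, a pseudocount of 0.1, no filter, predicted gene names left out with totals rescaled, library quality weights, a replicate block, a fit of only the groups compared, no doubted pair, and leaving out each library. The fit was tested on simulated data. Promoters came from RefSeq (GRCm38.p6), and exon overlaps from GENCODE M21, found for 1 of the 10 genes. Tables were made with pandas 2.3.3 and numpy 2.4.6 under Python 3.11.15, and figures with matplotlib 3.10.9.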

Additional observations from a re-analysis of the deposited data

Results flagged for a closer look

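A total of 8 results stood out because an effect differed between groups in a direct test of the difference. The change with assembly, without BMP4, was larger in TSC than in iPSC for 5 genes. The difference of log2 differences was 3.10 for Dusp6, 2.47 for Spry1, 3.24 for Spry2, 4.44 for Etv4 and 3.65 for Etv5. The change with BMP4 was smaller in the TSC part than in TSC alone for 3 genes, with -1.73 for Spry1, -3.93 for Etv4 and -2.50 for Etv5. All 8 rest on the 2 libraries of TSC alone, in which these genes were below 1 FPKM. With 2 libraries per group, single values could not be checked for standing apart.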

How the results depend on the processing

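No difference that passed the test in the main fit, or in an alternative other than leaving out 1 library, changed direction under any alternative. Differences that passed only with 1 library left out were not checked for direction. All 9 genes called lower in TSC alone than in iPSC alone were called under all 13 alternatives run for them. Counts of the 10 genes called, which were 7 for the TSC part against TSC alone and 7 for TSC with BMP4 against TSC alone, were 0 and 0 in a fit of only the groups compared. That fit has 2 residual degrees of freedom, and its limma adjusted p lay between 0.0725 and 0.131 for the TSC part and between 0.135 and 0.254 for BMP4. Over all genes it called 3 in each of these comparisons and 8 between the parts with BMP4. With the same degrees of freedom it called 3308 for TSC against iPSC alone and 1947 between the parts. TSC alone had the most genes over 2-fold apart between replicates, at 2083, and the part of this spread in the loss was not tested. Between the parts with BMP4 the count of 2 became 1 with no filter, 0 in a fit of only the groups compared and 4 without the doubted pair. Between TSC and iPSC alone with BMP4 it was 5 without the pair in place of 3. For the iPSC part against iPSC alone the count of 0 became 1 with quantile normalization, 1 with upper quartile rescaling, 2 with quality weights and also 1 when only the groups compared were fitted; with BMP4 it became 1 without the pair. For the difference in the BMP4 effect between the TSC part and TSC alone the count of 3 became 1 with quantile normalization, predicted names left out, quality weights, the replicate block, a fit of only the groups compared or the pair left out.

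Leaving out 1 library gave 9 to 10 genes for TSC against iPSC alone, 3 to 4 with BMP4, 2 to 4 between the parts, 1 to 3 between the parts with BMP4, 6 to 8 for the TSC part against TSC alone and 5 to 7 for BMP4 in TSC alone. It gave 0 to 1 for the iPSC part with BMP4 against iPSC with BMP4 and for BMP4 in the TSC part, 3 to 5 for the difference in assembly and 1 to 2 for the difference in the BMP4 effect, and 0 for the remaining comparisons. Over all genes, the 2575 called in the TSC part against TSC alone became 1038 to 2083 without 1 library, and the 1625 called with BMP4 in TSC alone became 569 to 1641. With a pseudocount of 0.1, genes near 0 in TSC alone had larger changes, and Spry4 and Etv1 also passed in the TSC part against TSC alone (3.02 and 2.78, limma adjusted p = 0.00418 and 0.0247).

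Over 28 pairs of groups the correlation of replicate differences ran from -0.19 to 0.12. Such values do not settle whether same-numbered TSC and iPSC parts came from the same structure. The sources used here do not state it, and the parts were tested as unpaired. With the replicate block the count for the difference in the BMP4 effect was 1 in place of 3. The precision is limited by 2 libraries per group and an unknown depth.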

Other observations

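In iPSC none of the 10 genes passed with assembly in limma, and 2 had an unadjusted p under 0.05. Some genes of the other pathway lists passed. The calls over all genes in this comparison rested on single libraries, as given above. No fit with a library left out is given for the genes named here. Of 21 cascade genes, 2 were higher and 3 lower in the iPSC part than in iPSC alone, where 2.08% of all genes were higher and 9.74% lower. Rasa1, a RAS GTPase-activating protein, was at 27.3 ± 0.0407 FPKM in the iPSC part and 5.30 ± 1.0 in iPSC alone (SD, n = 2 each; 2.18 ± 0.38, limma adjusted p = 0.00641). Mapk3, which encodes ERK1, was higher (1.22 ± 0.36, limma adjusted p = 0.0437) and Map2k2 lower (-1.39 ± 0.24, limma adjusted p = 0.00641). Dusp5, a nuclear ERK phosphatase, was the 1 of 9 other inhibitors that passed, at 10.0 ± 1.31 FPKM in the iPSC part and 1.90 ± 0.615 in iPSC alone (1.94 ± 0.37, limma adjusted p = 0.00841). Fgf5, an epiblast ligand, was lower, at 9.04 FPKM on average in the iPSC part and 45.1 in iPSC alone (-2.36 ± 0.47, limma adjusted p = 0.00999).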
